A study of Mus musculus with 8 samples.

Results

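Erythroblasts were compared with blood progenitors in the bone marrow libraries labelled Plek2-/-, which make up 4 of the 8 libraries of this mouse RNA sequencing series. The labels alone set which 4 libraries these are, with no measured value used: 2 of TER119-positive erythroblasts and 2 of Kit-positive cells from the lineage-negative fraction, called progenitors here. The comparison covered the 13365 genes that passed a filter on low counts, out of 23337 genes in the deposited table. All mice were C57BL/6, were 4 months old and carried JAK2 V617F on 1 allele (JAK2 V617F/+), so no group here lacked the activated kinase. The other 4 libraries hold erythroblasts and progenitors of JAK2 V617F/+ mice labelled Plek2+/+, and they entered the same model, where they share in the filter, the scaling and the estimate of spread, and served to ask whether the population contrast differed between the Plek2 labels. With the 4 Plek2-/- libraries alone, 4747 genes were called higher and 5002 lower by edgeR, close to the counts given below. Nothing in the labels says which part of Plek2 was deleted, and they do not state if a group's libraries are from different mice. The p-values below therefore measure the spread between libraries only, which may be technical.

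Erythroblasts are the nucleated precursors of red cells. As they mature they fill with hemoglobin, which joins globin chains to heme and iron, build a spectrin-based membrane skeleton, divide a few last times under erythropoietin and JAK2 signalling, condense their chromatin and finally expel the nucleus. Kit-positive lineage-negative marrow is a mixture of stem cells and of progenitors already committed to the red cell, granulocytic, monocytic, megakaryocytic or lymphoid lines. JAK2 V617F makes the kinase active without cytokine and drives the red cell excess of polycythemia vera. Plek2 encodes pleckstrin-2, a phosphoinositide-binding protein of erythroblasts that acts on the actin cytoskeleton.

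The libraries matched their population labels. A set of 5 erythroid marker genes took 7.17% and 6.59% of all counts in the erythroblast libraries and 0.0184% and 0.0319% in the progenitor libraries, and 6 stem and progenitor markers took 0.0138% and 0.0114% against 0.119% and 0.118%. Kit, the stem cell factor receptor by which the progenitors were sorted, stood at 20.8 and 18.3 CPM in the erythroblast libraries and 117 and 163 CPM in the progenitor libraries, which describes the sort and is no finding. Plek2 was measured in every library labelled Plek2-/-, with 616 and 781 reads in the erythroblast libraries and 130 and 173 in the progenitor libraries. At 48.2 and 53.1 against 5.06 and 5.67 CPM it was 9.41-fold higher in erythroblasts (log2 fold change 3.23, SE 0.15, edgeR adjusted p = 4.39e-10), so these libraries did not lack its RNA, and the position of these reads along Plek2 is not seen in a count table. Jak2 was 2.05-fold higher in erythroblasts, at 272 and 305 against 143 and 138 CPM, and its reads do not separate the V617F allele from the other. CPM here means counts-per-million of the library total after TMM scaling, an edgeR step that sets the bulk of genes to a common level. Library totals ran from 16760897 to 23521726 counts, and a count of 0 allows up to 3 counts, or 0.0983 to 0.235 CPM, for counting error only. In bulk RNA, fewer cells of a type and less RNA per cell cannot be told apart.

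The change between the populations was broad. Of the 13365 genes tested, 5009 were higher in erythroblasts and 5242 lower at an edgeR adjusted p below 0.05, together 76.7%, with 37.5% higher and 39.2% lower. A stricter edgeR test, which asks whether a gene changed by more than 2-fold, passed 31.1% of genes: 2005 higher (15.0%) and 2158 lower (16.1%). The median log2 fold change over all genes tested was -0.07, with quartiles of -0.99 and 0.73. The tails differed in length. Among called genes, 308 were higher by a fitted 16-fold or more and 84 were lower by as much, although 1081 and 1041 passed a fitted 4-fold. Erythroblast RNA was also concentrated in fewer genes, since the 10 genes with the most reads took 15.2% and 14.3% of counts in the erythroblast libraries and 8.42% and 8.25% in the progenitor libraries. The genes that together held 50% of the counts numbered 483 and 481 in erythroblasts and 1126 and 1119 in progenitors. With scaling to library totals instead of TMM, the median log2 fold change moved by -0.79 and the split became 2307 higher and 8957 lower, or 20.5% of the calls higher instead of 48.9%. All changes below are relative to the TMM level, and a rise of less than about 0.79 on the log2 scale has the opposite sign on the scale of library totals.

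**Figure D1:**
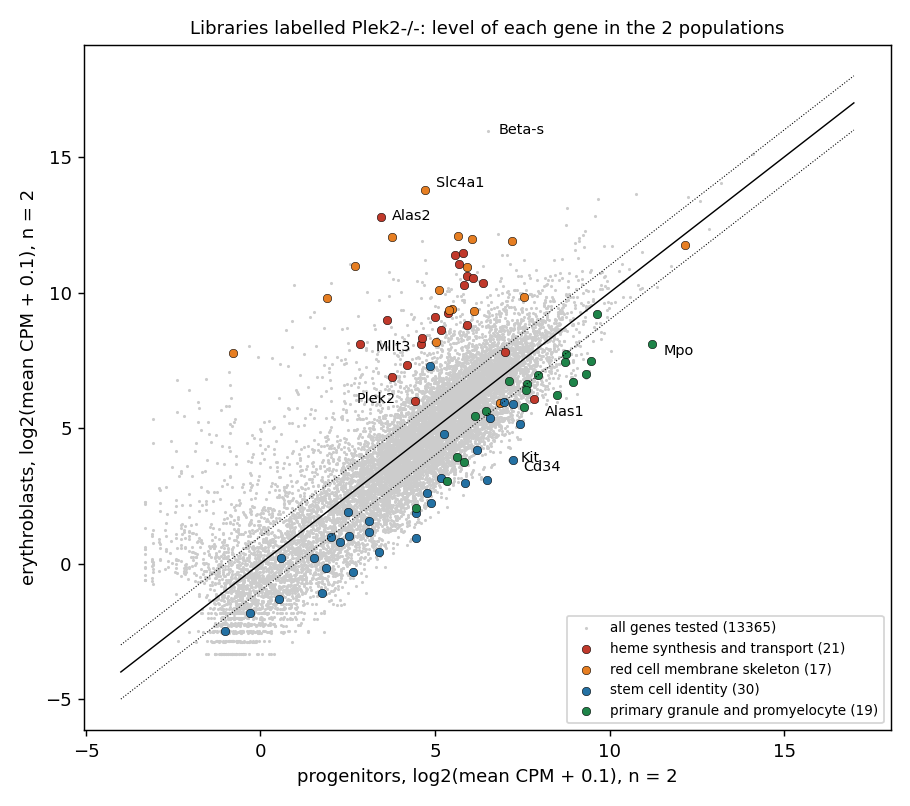
Mean level of each tested gene in erythroblasts (vertical axis) against progenitors (horizontal axis), both as log2 of mean CPM + 0.1 over the 2 libraries labelled Plek2-/-, with the solid line at equality and dotted lines at 2-fold. Heme and membrane skeleton genes lie far above the line, with exceptions such as Alas1, and stem cell and primary granule genes lie below it, with Mllt3 above.

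The 12 largest rises among genes at 50 CPM or more in erythroblasts included genes of hemoglobin, heme synthesis and the red cell membrane. Beta-s, an adult beta globin gene of this strain (chr7:103826534-103828096 on GRCm38, minus strand), stood at 68530 and 60460 CPM in the erythroblast libraries and 55.1 and 127 CPM in the progenitor libraries. Its levels in erythroblasts lay far above both progenitor libraries, which themselves differed by more than 2-fold, and the fold was 708-fold (log2 fold change 9.47, SE 0.40, edgeR adjusted p = 1.95e-10). Alas2, the erythroid enzyme of the first and rate-limiting step of heme synthesis (chrX:150547375-150570638, plus strand), had 7353 and 6874 CPM in the erythroblast libraries and 7.05 and 14.7 CPM in the progenitor libraries and was 647-fold higher (log2 fold change 9.34, SE 0.29, edgeR adjusted p = 9.84e-12). Slc4a1, the band 3 anion exchanger, had 13340 and 14650 against 14.4 and 37.8 CPM and was 532-fold higher (log2 fold change 9.06, SE 0.40, edgeR adjusted p = 2.63e-10). In each of these 3 genes the erythroblast libraries lay close together and the populations did not overlap, as in 87.9% of all genes tested. The second progenitor library held more RNA of these 3 genes than the first.

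Other genes in the top 12 included Hbq1b, a theta globin gene, with 1351 and 1653 reads in the erythroblast libraries and 3 and 2 in the progenitor libraries, and Apol11b, a member of the apolipoprotein L family, with 1287 and 1223 against 0.896 and 2.78 CPM and 657-fold higher in erythroblasts. Trim10, a RING-type ubiquitin ligase of erythroid cells, was 359-fold higher at 2165 and 2109 against 4.48 and 7.27 CPM. Slc2a4, the insulin-responsive glucose transporter, had 102 and 123 against 0.156 and 0.328 CPM, and the transcriptional cofactor gene Nrip3 had 84.0 and 86.8 against 0.117 and 0.164 CPM. Samd11 was 374-fold higher at 256 and 266 against 0.662 and 0.721 CPM and the tropomodulin gene Tmod1 was 435-fold higher at 190 and 247 against 0.195 and 0.753 CPM. None of these 7 genes exceeded 10 CPM in a progenitor library, and all 7 were at more than 80 CPM in both erythroblast libraries.

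The genes that took the most erythroblast reads after Beta-s included Tfrc, the transferrin receptor, at 10920 and 11760 against 798 and 821 CPM (14.0-fold higher; log2 fold change 3.81, SE 0.13, edgeR adjusted p = 1.98e-11), Car2, a carbonic anhydrase, at 8852 and 9028 against 417 and 454 CPM (20.5-fold higher), and Mki67, the Ki-67 proliferation antigen, at 12140 and 13400 against 1691 and 1762 CPM (7.40-fold higher). The linker histone gene Hist1h1c was 9.35-fold higher at 7326 and 7127 against 797 and 749 CPM. Rn45s, the ribosomal RNA precursor, and the RNA components of RNase P and RNase MRP, Rpph1 and Rmrp, were also among the 10 genes with the most erythroblast reads, and the RNA is labelled as total RNA. Rn45s had 38280 and 32420 against 20180 and 15230 CPM and Rpph1 had 17340 and 16510 against 9774 and 8954 CPM.

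The 12 largest falls among genes at 50 CPM or more in progenitors ran from 7.96-fold to 11.2-fold. Cd34, a surface sialomucin of stem and progenitor cells, stood at 15.3 and 12.9 CPM in the erythroblast libraries and 164 and 137 CPM in the progenitor libraries and was 10.7-fold lower (log2 fold change -3.42, SE 0.12, edgeR adjusted p = 2.02e-11). Flt3, the cytokine receptor of early lympho-myeloid progenitors, was 10.7-fold lower at 9.62 and 7.21 against 97.7 and 81.2 CPM (log2 fold change -3.42, SE 0.14, edgeR adjusted p = 1.41e-10). Runx2, a Runt family factor known from bone, was 11.2-fold lower at 8.69 and 7.07 against 78.7 and 96.8 CPM. Mpo, the myeloperoxidase of granulocyte precursors, had 269 and 282 against 2091 and 2698 CPM and was 8.70-fold lower (log2 fold change -3.12, SE 0.13, edgeR adjusted p = 1.61e-10). Bcl2, the founding anti-death gene of its family, was 7.97-fold lower at 14.2 and 10.6 against 105 and 92.5 CPM. Gria3, Muc13, BC005764, Met, Ptprs, Chdh and Eltd1 completed the 12, with falls from 7.96-fold (Eltd1) to 9.92-fold (Gria3). No erythroblast library reached a progenitor library in any of the 12, and the groups did not overlap in 87.9% of all genes tested.

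**Figure D2:**
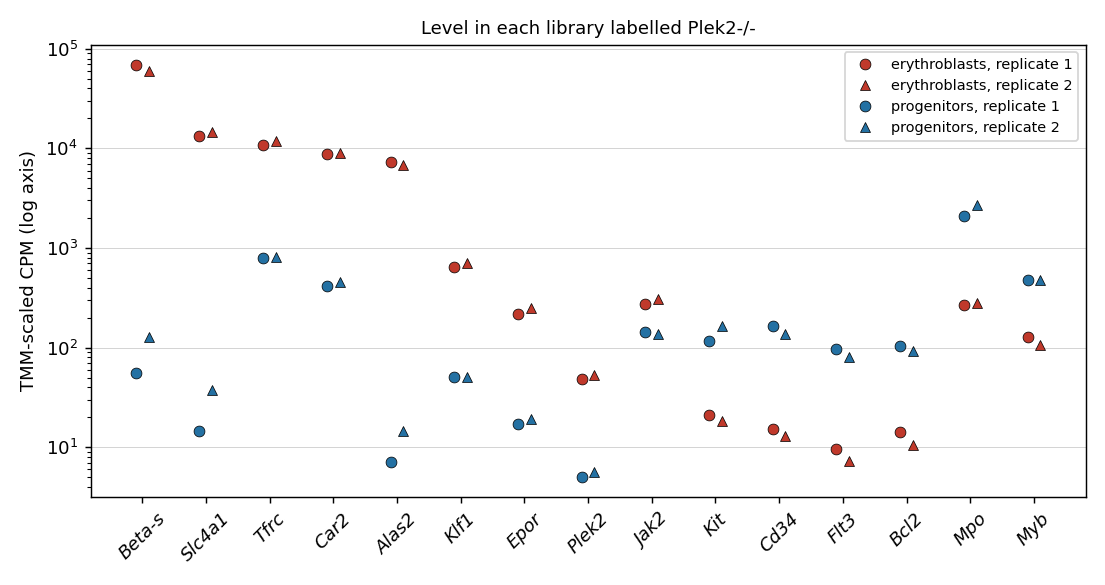
TMM-scaled CPM (log axis) of 15 genes in each of the 4 libraries labelled Plek2-/-, red for erythroblasts and blue for progenitors, with circles for replicate 1 and triangles for replicate 2. Beta-s, Slc4a1 and Alas2 separate by more than 2 log10 units, and Kit, Cd34, Flt3, Bcl2, Mpo and Myb lie lower in erythroblasts.

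Mir144 and Mir451 are microRNA genes transcribed together on chromosome 11, and miR-451 is known as an abundant red cell microRNA that is cut by Argonaute 2 instead of Dicer. The count table holds reads on their hairpin genes, not mature microRNAs: Mir144 had 113 and 140 reads in the erythroblast libraries and 0 and 6 in the progenitor libraries, and Mir451 had 136 and 151 reads in the erythroblast libraries and 3 and 3 in the progenitor libraries. Both were called higher by edgeR (adjusted p = 1.09e-08 and 9.16e-10), with no fold given because the progenitor counts were at or near 3. The mature sequences from RefSeq (GRCm38.p6) follow, 5′ to 3′, with the seed, bases 2 to 8, in capitals.
mmu-miR-144-5p: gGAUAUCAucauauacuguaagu
mmu-miR-144-3p: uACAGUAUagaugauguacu
mmu-miR-451a: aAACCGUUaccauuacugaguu
The 3 seeds are all different. Mir486, a further red cell microRNA gene, lies inside Ank1 on the same strand, so its reads cannot be told apart from those of Ank1.

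The 250 bases before the start of Beta-s, Alas2, Trim10 and Apol11b, taken from RefSeq on GRCm38.p6 and printed along the gene's own strand, are given here because these 4 are among the genes with the largest rises. The RefSeq starts of Beta-s and Alas2 lie inside the gene spans given above, which come from GENCODE. Capitals mark GATA motifs (an A or T, then GATA, then an A or G, the letters bound by GATA factors) and CACCC motifs (CCNCNCCC, the letters bound by Kruppel-like factors), searched on both strands.
Beta-s, chr7:103827929-103828178, minus strand: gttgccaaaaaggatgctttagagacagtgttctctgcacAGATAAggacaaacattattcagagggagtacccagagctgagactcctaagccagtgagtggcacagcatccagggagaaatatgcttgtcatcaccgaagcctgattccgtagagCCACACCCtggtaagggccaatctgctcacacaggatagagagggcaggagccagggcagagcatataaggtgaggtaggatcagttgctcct
Alas2, chrX:150547167-150547416, plus strand: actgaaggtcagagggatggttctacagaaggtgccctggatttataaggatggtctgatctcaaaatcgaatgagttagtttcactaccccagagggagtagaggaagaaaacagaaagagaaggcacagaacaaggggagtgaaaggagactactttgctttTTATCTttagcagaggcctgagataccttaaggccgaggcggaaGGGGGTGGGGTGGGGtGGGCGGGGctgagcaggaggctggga
Trim10, chr17:36869324-36869573, plus strand: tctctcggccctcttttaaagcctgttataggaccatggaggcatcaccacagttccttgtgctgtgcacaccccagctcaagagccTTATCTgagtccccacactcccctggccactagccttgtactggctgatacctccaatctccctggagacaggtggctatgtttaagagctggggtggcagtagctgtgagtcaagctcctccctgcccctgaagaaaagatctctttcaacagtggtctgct
Apol11b, chr15:77643287-77643536, minus strand: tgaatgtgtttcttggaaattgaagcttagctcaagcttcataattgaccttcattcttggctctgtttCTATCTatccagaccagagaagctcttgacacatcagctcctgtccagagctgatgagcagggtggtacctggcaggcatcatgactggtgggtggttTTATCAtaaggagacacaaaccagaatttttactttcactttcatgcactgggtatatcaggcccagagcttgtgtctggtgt
Beta-s held 1 GATA and 1 CACCC motif, Alas2 held 1 and 4 with overlapping CACCC matches, Trim10 held 1 and 0, and Apol11b held 2 and 0. Over 10514 promoters with a RefSeq entry, counted in 300 bases from 250 before to 50 after the start, 19.3% held a GATA motif. The share was 22.1% among 1560 genes higher by the 2-fold test, 18.8% among 1670 genes lower by it, and 33.2% among 235 called genes that were higher by a fitted 16-fold or more. The CACCC shares in the same order were 67.6%, 68.1%, 72.9% and 66.8%. Median GC content was 60.3% over all promoters and 56.3% in the 16-fold set, and its part in the GATA shares was not tested. A match is a description of letters, not of a bound site.

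Globin genes took 5.23% and 4.58% of the erythroblast counts and 0.0073% and 0.0165% of the progenitor counts. Of the 8 listed globin genes in the table, 3 passed the filter, Beta-s, Hbb-y and Hbb-bh1, and all 3 were called higher. The embryonic genes Hbb-y and Hbb-bh1 stayed low, at 1.33 and 1.56 CPM and 1.02 and 0.884 CPM in the erythroblast libraries, and were at 0 reads in both progenitor libraries. Hba-a1, Hba-a2, Hbb-b1, Hbb-b2 and Hba-x were not tested and held at most 5 reads in a library. Hba-a1 and Hba-a2 are near-identical copies, as are the adult beta globin genes, and how reads shared between copies were counted is not given in the sources used here, so globin levels are uncertain.

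Heme synthesis genes were higher in erythroblasts, with 1 exception. Of 21 heme synthesis and transport genes tested, 20 rose and 1 fell, and 19 rose and 1 fell by the 2-fold test, with a median log2 fold change of 3.99 against -0.07 over all genes. The list took 1.84% and 1.87% of the erythroblast counts and 0.138% and 0.145% of the progenitor counts. In the order of the pathway, and named here after their values were seen, Alad was 14.7-fold higher, Uros 41.8-fold higher, Urod 21.8-fold higher, Cpox 15.8-fold higher, Ppox 17.03-fold higher and Fech, the ferrochelatase that inserts iron, 55.6-fold higher. Slc25a37, the mitoferrin that brings iron into mitochondria, was 50.8-fold higher at 2660 and 2972 against 47.4 and 63.2 CPM. The gene that fell was Alas1, the form of the first enzyme used outside red cells, at 67.8 and 65.3 CPM in the erythroblast libraries and 229 and 230 CPM in the progenitor libraries (3.44-fold lower; log2 fold change -1.78, SE 0.08, edgeR adjusted p = 4.97e-10).

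Iron uptake and storage rose with them. Of 14 iron genes tested, 11 rose and 1 fell, 9 of the rises past 2-fold, with a median of 1.41. Tfrc led in level, as given above. Fth1, the ferritin heavy chain, was 4.29-fold higher at 1001 and 1140 against 245 and 254 CPM. Fam132b, which encodes erythroferrone, the erythroblast hormone that lowers hepcidin, was 45.9-fold higher at 147 and 171 against 3.39 and 3.54 CPM. The fall was Pcbp2, an iron chaperone and RNA-binding protein, at 170 and 155 against 185 and 228 CPM (1.27-fold lower), a call that was lost without erythroblast replicate 2 (log2 fold change -0.28, edgeR adjusted p = 0.0509) and without progenitor replicate 2 (-0.19, edgeR adjusted p = 0.106).

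Components of the membrane skeleton rose together. Of 17 genes tested, 15 rose, all 15 past 2-fold, and 2 fell, Tpm3 and Actb, with a list median of 4.97. The spectrin genes Spna1 and Spnb1, which form the meshwork under the membrane, were 85.7-fold higher (4200 and 4465 against 46.8 and 54.2 CPM) and 60.8-fold higher (3875 and 4280 against 59.7 and 74.2 CPM). Ank1, the ankyrin that ties spectrin to band 3, was 32.8-fold higher, Epb4.1, the protein 4.1 gene, 26.1-fold higher, and Add2, an adducin that caps actin, 15.0-fold higher. Tpm3, a tropomyosin gene, was 1.92-fold lower, and the cytoplasmic actin gene Actb was 1.34-fold lower at 3615 and 3286 against 4479 and 4765 CPM, a call that was lost without erythroblast replicate 2 (log2 fold change -0.36, edgeR adjusted p = 0.0616). The skeleton list took 3.21% and 3.38% of the erythroblast counts and 0.704% and 0.744% of the progenitor counts.

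Of 19 red cell surface and blood group genes, 17 rose, all past 2-fold, and 2 fell (median 3.76). Cd24a, the heat-stable antigen of immature red cells, was 13.5-fold higher at 5688 and 5896 against 418 and 440 CPM, and the water channel gene Aqp1 was 12.5-fold higher at 2203 and 2489 against 177 and 199 CPM. Rhd, the mouse Rhesus protein gene, was 54.6-fold higher at 1268 and 1398 against 23.9 and 24.9 CPM. The scavenger receptor gene Cd36 had the largest rise of the list, 76.4-fold, at 460 and 376 against 5.49 and 5.44 CPM. The falls were Cd44, an adhesion receptor lost as erythroblasts mature, at 177 and 154 against 319 and 388 CPM (2.14-fold lower), and Slc2a1, the common glucose transporter, at 6.26 and 4.83 against 21.6 and 19.7 CPM (3.74-fold lower).

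Many pairs of related genes moved in opposite directions. In 20 of 35 pairs of related genes the member listed first, in most cases the red cell form, rose and its relative fell. Over all genes 37.5% were higher and 39.2% lower. The pairs were picked by hand with earlier results of these data known, so their number describes the choice and is no test. Pairs with both members higher numbered 8, pairs with both lower 2, and the other 5 had a member that was not called or not tested or went the opposite way. The ratio of the reads of a pair within a library does not depend on scaling between libraries. Reads were not corrected for transcript length, so only the change of a ratio is read here. The read ratio of Alas2 to Alas1 rose 2400-fold from progenitors to erythroblasts, that of Slc4a1 to its relative Slc4a2 813-fold, and that of Tmod1 to Tmod3 686-fold. The alpha spectrin ratio Spna1 to Spna2 rose 249-fold and the beta spectrin ratio Spnb1 to Spnb2 225-fold. The erythroid members rose as given above and the nonerythroid spectrins fell, Spna2 from 331 and 333 CPM in progenitors to 134 and 97.3 CPM in erythroblasts and Spnb2 from 449 and 508 CPM to 150 and 112 CPM. Protein 4.1 (Epb4.1 to Epb4.1l2) changed 59.4-fold, the adducins (Add2 to Add3) 25.8-fold and the mitoferrins (Slc25a37 to Slc25a28) 73.7-fold.

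The same pattern held for enzymes and regulators. The ratio of Bpgm, which makes the hemoglobin ligand 2,3-bisphosphoglycerate, to the phosphoglycerate mutase gene Pgam1 rose 317-fold, with Pgam1 at under 4 CPM in each library. Pgam1 had only 10 and 15 reads in the erythroblast libraries and 80 and 78 in the progenitor libraries, so this ratio is uncertain. The survival genes changed places: Bcl2l1, which encodes BCL-XL, was 24.9-fold higher at 490 and 546 against 19.4 and 22.04 CPM while Bcl2 fell, so that their ratio rose 199-fold. Klf1 to Klf2 rose 46.2-fold, Foxo3 to Foxo1 33.0-fold and the eIF2 kinases Eif2ak1 to Eif2ak4 18.3-fold. The ratio of Plek2 to Plek, the pleckstrin of white cells and platelets, rose 13.2-fold. Smaller changes were seen for the hexokinases Hk1 to Hk2 (10.1-fold), pyruvate kinases Pklr to Pkm2 (7.67-fold) and the D cyclins Ccnd3 to Ccnd2 (7.58-fold). Ezh1 and Ezh2, the methyltransferases of Polycomb complex PRC2, both rose and their ratio changed 1.20-fold. In 4 pairs the ratio fell, by 3.10 on the log2 scale for the linker histones H1f0 to Hist1h1c, by 2.64 for the transferrin receptors Tfr2 to Tfrc, by 1.35 for the lactate dehydrogenase subunits Ldhb to Ldha, and for Myb to Mybl2: Myb was 4.07-fold lower at 128 and 106 against 474 and 478 CPM, and Mybl2, a cell cycle gene, was 3.68-fold higher at 128 and 138 against 35.9 and 36.6 CPM.

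**Figure D3:**
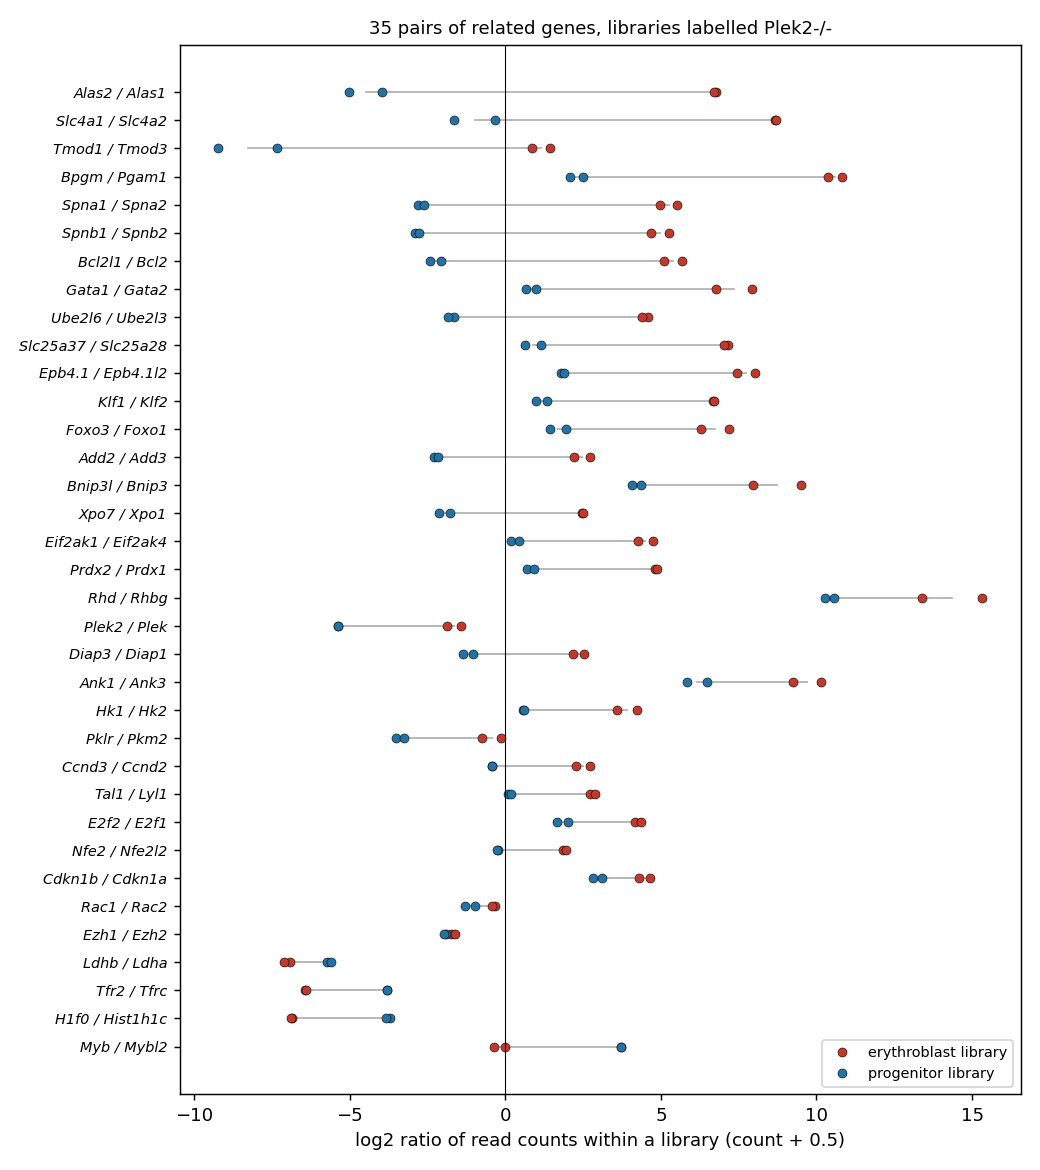
Log2 ratio of read counts (count + 0.5) of the 2 genes of each of 35 pairs in each library labelled Plek2-/-, red for erythroblasts and blue for progenitors, with a grey line between the group means. The change is largest for Alas2 to Alas1 (11.23 on the log2 scale), and the pairs at the foot, such as Myb to Mybl2, moved the opposite way.

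Erythroid transcription factors rose, with exceptions. Of 24 tested, 17 rose, 13 past 2-fold, and 5 fell, 2 of them past 2-fold, with a median of 1.86. Sox6, which silences embryonic globin, had the largest rise, 124-fold, at 954 and 1111 against 6.74 and 9.76 CPM. Klf1 was 13.4-fold higher at 652 and 709 against 51.2 and 50.6 CPM (log2 fold change 3.74, SE 0.11, edgeR adjusted p = 4.41e-12), the GATA factor gene Gata1 7.48-fold higher at 268 and 307 against 39.1 and 37.7 CPM, and Tal1, the stem cell leukemia factor, 10.1-fold higher. E2f2, an E2F of terminal erythroblasts, was 12.02-fold higher, Nfe2, the globin enhancer factor, 4.89-fold higher, and Foxo3 5.92-fold higher. Gata2, which Gata1 replaces as red cells mature, fell most, 12.3-fold, from 20.0 and 23.9 CPM to 2.43 and 1.22 CPM. The other falls, named after their values were seen, were Myb, the fetal globin silencer Bcl11a, the corepressor Cbfa2t3 and the glucocorticoid receptor Nr3c1, the last of which was not called without erythroblast replicate 2 (log2 fold change -0.18).

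Genes of late maturation were high in these erythroblasts. Of 28 genes of autophagy, ubiquitin transfer and nuclear export tested, 23 rose, 21 past 2-fold, and 3 fell, none past 2-fold (median 3.06). Xpo7, an exportin known to act in nuclear condensation of erythroblasts, was 41.1-fold higher at 4491 and 4681 against 104 and 120 CPM. Bnip3l, the receptor for removal of mitochondria, was 11.0-fold higher at 825 and 758 against 67.0 and 77.0 CPM, and the ubiquitin-conjugating enzyme gene Ube2l6 was 73.0-fold higher at 952 and 901 against 12.5 and 12.8 CPM. The 3 falls were Tnks1bp1, Atg7 and Ulk2, and that of Ulk2 was not called without erythroblast replicate 2 (log2 fold change -0.24).

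Enzymes of red cell metabolism split. Of 22 carbonic anhydrase, glycolysis and nucleotide genes, 9 rose and 13 fell, 8 and 6 past 2-fold, with a median of -0.41. Eno1, with 0 reads, was not tested. How reads shared between gene copies were counted is not given, so levels in this list may be uncertain too. The rises were led by Bpgm (104-fold, 1493 and 1387 against 13.1 and 14.6 CPM) and Car2, and included Hk1 (2.79-fold) and Pklr (2.80-fold). The falls included Hk2 (3.59-fold, 39.6 and 27.4 against 118 and 122 CPM) and Pkm2 (2.73-fold, 187 and 148 against 460 and 453 CPM), the forms common in other dividing cells. Of 18 antioxidant genes 13 rose and 3 fell, with 7 rises past 2-fold and a median of 0.57, which turns to -0.22 with library totals. Gpx1, a glutathione peroxidase, was 7.78-fold higher at 5071 and 4742 against 663 and 599 CPM and the peroxiredoxin gene Prdx2 was 20.2-fold higher at 2701 and 2680 against 135 and 131 CPM. Gsr, the glutathione reductase, was 1.81-fold lower.

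Genes of the integrated stress response and amino acid supply were mostly higher. Of 24 genes tested, 18 rose, 15 past 2-fold, and 4 fell (median 2.29). Trib3, a pseudokinase induced by this response, was 273-fold higher at 474 and 515 against 1.129 and 2.39 CPM (log2 fold change 8.09, SE 0.23, edgeR adjusted p = 3.70e-12). Ppp1r15a, the phosphatase subunit that ends the response, was 31.0-fold higher at 966 and 1141 against 30.1 and 37.8 CPM. Eif2ak1, the kinase that senses lack of heme, was 10.8-fold higher at 524 and 648 against 48.0 and 60.8 CPM, while Eif2ak4, the kinase that senses lack of amino acids, was 1.70-fold lower. Of the 4 eIF2 kinase genes 2 rose and 2 fell, with Eif2ak3, the kinase of endoplasmic reticulum stress, 1.83-fold lower. Phgdh, of serine synthesis, was 1.91-fold lower.

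Cell cycle genes were higher in the erythroblast libraries almost throughout. Of 32 genes of S phase and replication licensing, 31 rose and 26 passed 2-fold (median 1.53), and of 30 G2 and M phase genes all 30 rose and 27 passed 2-fold (median 1.92). The G2 and M list took 2.16% and 2.38% of the erythroblast counts and 0.826% and 0.804% of the progenitor counts. Orc1, a subunit of the origin recognition complex, was 8.45-fold higher at 212 and 224 against 24.3 and 27.1 CPM, Rrm1, of ribonucleotide reductase, 3.79-fold higher, and Top2a, the topoisomerase of dividing cells, 3.13-fold higher at 3213 and 3500 against 1102 and 1043 CPM. Among 14 D cyclins, kinases and inhibitors, 8 rose and 4 fell, with a median of 0.75 that turns to -0.04 with library totals. Ccnd3, the D cyclin that sets the number of erythroblast divisions, was 2.74-fold higher at 293 and 367 against 113 and 127 CPM, and Ccnd2 was 2.78-fold lower at 60.9 and 56.2 against 154 and 172 CPM. Cdk6 was 4.74-fold lower at 38.3 and 40.0 against 171 and 200 CPM, the inhibitor gene Cdkn1b, which encodes p27, was 4.38-fold higher at 320 and 317 against 72.9 and 72.5 CPM, and the retinoblastoma gene Rb1 was 6.62-fold higher.

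Histone and chromatin genes changed with them. Of 15 histone genes in a list of linker, variant and some clustered genes, 12 rose and 2 fell, 8 and 2 past 2-fold (median 1.77). Hist1h1c, Hist1h2bc, Hist1h2be, Hist1h4h, Hist2h2be and Hist3h2a, all called higher, are counted again in the clustered histone family given further below. Hist3h2a was 12.4-fold higher at 1474 and 1466 against 121 and 116 CPM, and H2afy, which encodes the repressive variant macroH2A1, was 5.56-fold lower at 125 and 103 against 681 and 591 CPM. Of 33 chromatin regulators 19 rose and 11 fell, with a median of 0.44 that turns to -0.35 with library totals. The falls past 2-fold were Dnmt3b, a DNA methyltransferase for new sites (4.98-fold, 7.04 and 5.51 against 31.7 and 30.5 CPM), and Tet1 and Tet2, which oxidise methylated DNA. Cbx5, the heterochromatin protein HP1 alpha, was 2.30-fold higher and the high mobility group gene Hmgb3 3.44-fold higher.

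Genes of protein synthesis moved little. Of 61 cytosolic ribosomal protein genes, 40 rose, 1 fell and 0 passed the 2-fold test, and their median of 0.48 turns to -0.30 with library totals. Rpl26, with 0 reads, and Rps16, with 4 to 9 reads in a library, were not tested. How reads shared between gene copies were counted is not given in the sources used here, so the levels of this list are uncertain too. Rplp1, of the ribosomal stalk, was 2.12-fold higher at 951 and 904 against 472 and 404 CPM. Of 30 genes of the nucleolus and ribosome assembly, 8 rose, 14 fell and 0 passed 2-fold (median -0.19), and the 14 became 9 without erythroblast replicate 2. Polr1b, of RNA polymerase I, was 1.77-fold lower and its factor gene Ubtf 2.09-fold higher. Nuclear-encoded respiratory chain genes had 31 of 34 higher and 0 lower, 3 past 2-fold, with a median of 0.76 that turns to -0.03 with library totals. Cox6a1, of cytochrome oxidase, was 2.46-fold higher at 150 and 163 against 64.9 and 62.5 CPM.

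Proteasome genes separated by type. Of 35 tested, 30 rose and 4 fell, 9 and 3 past 2-fold (median 0.88). Psme3 and Psme4, activators of the proteasome, were 6.39-fold higher and 2.41-fold higher, and the inhibitor subunit gene Psmf1 was 6.43-fold higher at 177 and 209 against 28.7 and 31.4 CPM. The 4 that fell were the immunoproteasome subunit genes Psmb8 (3.64-fold, 51.2 and 38.0 against 177 and 148 CPM), Psmb9 and Psmb10 and the activator gene Psme1. Psmb8, Psmb9 and Psmb10 are also in the next list, and are counted again among its falls past 2-fold. MHC class I and peptide loading, the partner process, had 12 of 16 lower and 2 higher, 6 falls past 2-fold (3 without erythroblast replicate 2), with a median of -0.82.

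Stem cell genes were lower in erythroblasts. Of 30 tested, 28 fell, 20 past 2-fold, and 1 rose, with a median of -2.04, and the list took 0.0388% and 0.0335% of the erythroblast counts and 0.158% and 0.154% of the progenitor counts. Etv6, an Ets family repressor of stem cells, was 4.87-fold lower at 36.4 and 35.3 against 164 and 184 CPM, and the Ets factor gene Fli1 was 2.59-fold lower at 64.2 and 52.6 against 143 and 159 CPM. The gene that rose was Mllt3, a reader of acylated histones, at 161 and 153 CPM in the erythroblast libraries and 28.9 and 29.1 CPM in the progenitor libraries (5.42-fold higher; log2 fold change 2.44, SE 0.08, edgeR adjusted p = 1.34e-11).

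Cytokine receptors fell apart from a few. Of 26 cytokine and growth factor receptor genes, 21 fell, 13 past 2-fold, and 3 rose, all past 2-fold (median -1.50). The rises were Epor, the erythropoietin receptor, at 216 and 251 CPM in the erythroblast libraries and 17.02 and 19.1 CPM in the progenitor libraries (12.9-fold higher; log2 fold change 3.69, SE 0.10, edgeR adjusted p = 3.06e-12), Tfr2, the second transferrin receptor and a partner of Epor, at 125 and 137 against 57.8 and 58.3 CPM (2.25-fold higher), and Il1rl1, the receptor of interleukin-33. Ifngr1, the interferon gamma receptor, was 2.16-fold lower at 115 and 90.1 against 210 and 232 CPM.

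Downstream of these receptors the list split. Of 25 JAK-STAT and feedback genes, 8 rose and 15 fell, 4 and 4 past 2-fold (median -0.50). Over all genes 15.0% were higher and 16.1% lower past 2-fold, close to the shares in this list. The rises past 2-fold were the STAT5 targets Pim1 (5.05-fold, 450 and 504 against 91.5 and 97.2 CPM), Bcl2l1, Cish and Pim2. Other members went the opposite way: Pim3, Socs1, Socs3 and Osm were called lower, and Socs2 was not called. Jak3, the kinase of the common gamma chain, was 4.80-fold lower at 7.75 and 8.70 against 37.3 and 41.9 CPM. Of 25 PI3K-Akt and pleckstrin genes 13 rose and 11 fell, with a median of 0.25 that turns to -0.54 with library totals. Pik3r1, the p85 alpha subunit, was 3.46-fold higher at 657 and 680 against 192 and 194 CPM and Foxo1 was 5.70-fold lower. Of 15 BCL2 family genes 4 rose and 4 fell (median -0.11), with Bcl2l1 and Bcl2 the extremes. This family was called less often than genes at large, of which 37.5% were higher and 39.2% lower.

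Actin genes were mostly lower. Of 35 genes of actin, cofilin and small GTPases, 26 fell and 7 rose, 8 and 3 past 2-fold, with a median of -0.82, and the 8 became 4 without erythroblast replicate 2. The kinase gene Limk1, which inactivates cofilin, was 6.32-fold lower at 4.38 and 3.26 against 25.2 and 22.9 CPM. Flna, the actin crosslinker filamin A, was 2.20-fold lower at 1304 and 1070 against 2513 and 2714 CPM and the blood cell GTPase gene Rac2 was 2.23-fold lower at 155 and 150 against 301 and 379 CPM. Diap3, a formin of cytokinesis, was 5.79-fold higher at 310 and 356 against 56.4 and 58.7 CPM, while its relative Diap1 was 2.05-fold lower. The fall of this list was smaller under the Plek2+/+ label, with a median of -0.32. The difference between labels was called negative in 14 of the 35 genes and positive in 0, against 5.32% negative over all genes. That of Flna was not called without Plek2+/+ progenitor replicate 1 (-0.74) or replicate 2 (-0.78). The Plek2 label and the sex of the mice cannot be told apart in this comparison. Neutrophil marker shares also differed between the labels, as given below, and their part in this list was not tested.

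**Figure D4:**
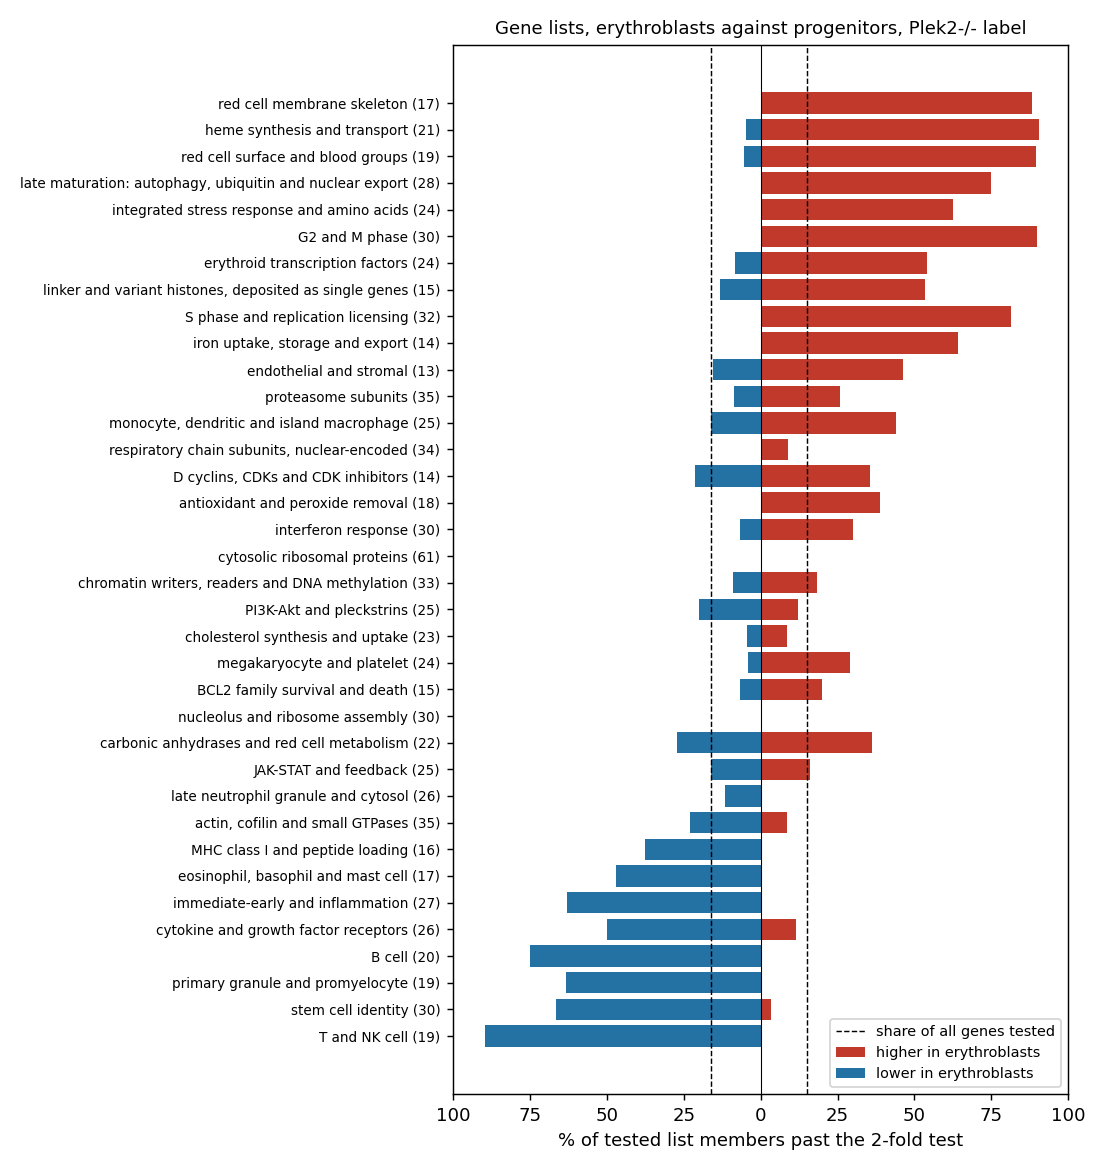
Percentage of the tested members of each list (number in brackets) past the 2-fold test, red to the right for higher in erythroblasts and blue to the left for lower, ordered by list median, with dashed lines at the share of all genes (15.0% and 16.1%). With library totals the medians of 9 lists change sign: D cyclins, PI3K-Akt, antioxidant, cholesterol, chromatin, ribosomal protein, interferon, megakaryocyte and respiratory chain genes. The lists of globins and of microRNA hosts and long noncoding RNAs, with 3 and 9 tested members, are not drawn.

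Granulocyte genes were lower in erythroblasts. All 19 primary granule and promyelocyte genes fell, 12 past 2-fold, with a median of -1.71. Of 26 late neutrophil genes 23 fell, 3 past 2-fold, with a median of -0.82, and the 23 became 14 without progenitor replicate 2. S100a9, of the calprotectin complex, had 5429 and 5091 CPM in the erythroblast libraries and 6496 and 8357 CPM in the progenitor libraries, and Lcn2, lipocalin-2, had 434 and 375 against 616 and 951 CPM (1.94-fold lower). Without progenitor replicate 2 the falls of S100a8 (-0.30 on the log2 scale), S100a9 (-0.30), Ltf (-0.49), Camp (-0.29) and Ngp (-0.37) were not called. The calls of S100a9 and Camp were also lost without any 1 of the 4 erythroblast libraries of either label, and that of S100a8 without either Plek2-/- erythroblast library. A set of 6 neutrophil markers took 1.05% and 0.956% of the erythroblast counts and 2.23% and 2.97% of the progenitor counts, none of them at 0 in either population, although the progenitors came from the lineage-negative fraction. The part of neutrophil RNA in other differences was not tested.

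Lymphoid genes fell and macrophage genes rose. Of 20 B cell genes 19 fell, 15 past 2-fold, and of 19 T and NK cell genes 18 fell, 17 past 2-fold, with 1 higher, Cd4 (13.2 and 11.6 against 5.30 and 8.25 CPM). Dntt, the polymerase of lymphoid progenitors, was 4.95-fold lower at 28.5 and 11.3 against 119 and 75.7 CPM, Igj, the joining chain of antibodies, 3.17-fold lower, and Pax5, the B cell factor, 6.08-fold lower at 2.43 and 2.79 against 12.6 and 19.2 CPM. Of 25 monocyte, dendritic and island macrophage genes 16 rose and 8 fell, 11 and 4 past 2-fold (median 0.80). C1qb, of complement C1q, stood at 114 and 122 CPM in the erythroblast libraries and 2.34 and 3.67 CPM in the progenitor libraries (38.8-fold higher; log2 fold change 5.28, SE 0.15, edgeR adjusted p = 3.78e-12), while the monocyte genes F13a1, Ccr2 and Klf4 were 4.94-fold lower, 2.36-fold lower and 6.64-fold lower. A set of 6 macrophage markers took 0.0782% and 0.0677% of the erythroblast counts and 0.0119% and 0.011% of the progenitor counts, with none at 0. Macrophages hold erythroblasts together in marrow islands, and the part of macrophage RNA in the erythroblast libraries in other differences was not tested.

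Of the remaining lineages, eosinophil, basophil and mast cell genes had 10 of 17 lower and 0 higher (median -1.26). Megakaryocyte and platelet genes had 8 of 24 higher and 6 lower, with a median of 0.12 that turns to -0.66 with library totals, -0.06 without erythroblast replicate 1 and -0.03 without progenitor replicate 1, and the 6 lower became 3 without erythroblast replicate 2 and also 3 without progenitor replicate 2. Megakaryocyte and platelet genes were thus called less often than genes at large, of which 37.5% were higher and 39.2% lower. The platelet chemokine gene Ppbp was 4.59-fold higher at 60.8 and 38.9 against 9.89 and 11.7 CPM and Nbeal2, of platelet granules, 3.65-fold lower. Endothelial and stromal genes had 6 of 13 higher and 3 lower, among them the collagen gene Col1a1, 13.4-fold higher at 130 and 138 against 12.6 and 7.63 CPM, and the endothelial adhesion gene Pecam1, 3.50-fold lower. A set of 4 stromal and endothelial markers took 0.0107% and 0.0109% of the erythroblast counts and 0.00204% and 0.00144% of the progenitor counts. Most of this share was Col1a1, with 1666 and 2031 reads in the erythroblast libraries and 324 and 233 in the progenitor libraries. The endothelial marker of the set, Cdh5, was called lower in erythroblasts, as was Pecam1, and the endothelial genes Kdr and Emcn were not called.

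Interferon genes did not move as a block. Of 30 tested, 17 rose and 11 fell, 9 and 2 past 2-fold, with a median of 0.54 that turns to -0.24 with library totals, and the 2 became 5 without erythroblast replicate 1. Rsad2, which encodes the antiviral enzyme viperin, had the largest rise, 90.5-fold, at 2541 and 2227 CPM in the erythroblast libraries and 26.8 and 25.8 CPM in the progenitor libraries (log2 fold change 6.50, SE 0.13, edgeR adjusted p = 3.43e-13). Ifitm1, an antiviral membrane gene, was 3.69-fold lower at 7.36 and 6.46 against 24.7 and 26.1 CPM. Immediate-early and inflammation genes were lower: 24 of 27 fell, 17 past 2-fold (11 without erythroblast replicate 2), and 2 rose (median -1.33). Junb, an AP-1 subunit, was 2.59-fold lower at 85.5 and 64.2 against 210 and 177 CPM and Nfkb1 2.24-fold lower. Cholesterol genes were mixed, with 9 of 23 higher and 7 lower and a median of 0.24 that turns to -0.55 with library totals. They were called no more often than genes at large, of which 37.5% were higher and 39.2% lower. Fdft1, the squalene synthase, was 4.39-fold higher at 34.5 and 37.9 against 7.91 and 8.55 CPM.

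Whether the contrast differed between the Plek2 labels was tested as the log2 fold change under the Plek2-/- label minus that under the Plek2+/+ label, in the same edgeR fit. Under the Plek2+/+ label 73.8% of genes were called in the population contrast, 36.0% higher and 37.8% lower. Of 13365 genes, 742 (5.55%) differed, 31 (0.232%) with a positive difference and 711 (5.32%) with a negative one. The positive calls numbered 2 without Plek2+/+ progenitor replicate 2, 3 to 14 without any other Plek2+/+ library or without Plek2-/- erythroblast replicate 2, and 48 and 50 without the Plek2-/- progenitor libraries. The negative calls numbered 399 without Plek2+/+ progenitor replicate 2 and 1140 without Plek2-/- erythroblast replicate 1. In the heme list 0 differences were called positive and 1 negative, with medians of 3.99 under the Plek2-/- label and 3.89 under the Plek2+/+ label. The negative call was Alas1, at -1.78 against -1.33, and it was lost without any 1 of 6 libraries (edgeR adjusted p = 0.055 to 0.205), all but replicate 1 of the erythroblasts under either label. In the stem cell list the medians were -2.04 and -1.65. The difference was called negative in 14 of 35 actin, 9 of 30 interferon and 8 of 27 immediate-early and inflammation genes. It was also called negative in 7 of 19 primary granule and 6 of 20 B cell genes, with 0 positive in each of these lists. The B cell medians were -1.69 under the Plek2-/- label and -0.68 under the Plek2+/+ label. Xist, the RNA of the inactive X chromosome, was at 3.60 and 3.40 against 2.22 and 2.13 CPM in these libraries and at 2657 and 2523 CPM in erythroblasts and 2908 and 3044 CPM in progenitors in those labelled Plek2+/+, so the Plek2 label and the sex of the mice cannot be told apart in this comparison.

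Neutrophil genes differed in direction between the labels. Late neutrophil genes had a median of -0.82 under the Plek2-/- label and 1.47 under the Plek2+/+ label, and the difference was called negative in 25 of 26 genes, with a median of -2.30. Ltf, lactoferrin, fell under the Plek2-/- label (-0.79, 2157 and 1853 against 2827 and 4107 CPM) and under the Plek2+/+ label stood at 2796 and 3205 CPM in erythroblasts and 1079 and 577 CPM in progenitors (1.86), for a difference of -2.65 (SE 0.34, edgeR adjusted p = 0.000532). Camp, the cathelicidin, differed by -2.68 and Lcn2 by -2.63. The 6 neutrophil markers took 1.38% and 1.52% of counts in the Plek2+/+ erythroblast libraries and 0.858% and 0.497% in the Plek2+/+ progenitor libraries, the opposite order to that under the Plek2-/- label. Among called genes at a mean of 10 CPM or more over the 4 groups, Plek2 itself had the lowest difference, -3.66 (SE 0.26, edgeR adjusted p = 6.34e-05): its log2 fold change was 3.23 here and 6.90 under the Plek2+/+ label, where it stood at 108 and 129 CPM in erythroblasts and 1.36 and 0.708 CPM in progenitors.

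Positive differences were few. Cdkn1a, which encodes the CDK inhibitor p21, had the highest among called genes at a mean of 10 CPM or more, 1.09 (SE 0.24, edgeR adjusted p = 0.0157), with 12.8 and 15.98 against 10.3 and 8.32 CPM under the Plek2-/- label and 8.26 and 7.06 CPM in erythroblasts and 11.3 and 9.81 CPM in progenitors under the Plek2+/+ label. Lgmn, a lysosomal protease, followed it among such genes outside the X chromosome with 0.88 (195 and 180 against 19.7 and 20.6 CPM), and its call held without any 1 library. Lgmn lies on chromosome 12, as does Plek2, and whether this position had a part in the difference was not tested. Atp2b4, a calcium pump of the red cell membrane, differed by 0.69 (896 and 1065 against 133 and 146 CPM), which was not called without Plek2-/- erythroblast replicate 2 (0.49, edgeR adjusted p = 0.0544) or Plek2+/+ progenitor replicate 2 (0.66, edgeR adjusted p = 0.0545). The call of Cdkn1a was lost without erythroblast replicate 2 under the Plek2+/+ (0.94) or the Plek2-/- label (0.85), without Plek2+/+ progenitor replicate 1 (0.99) and without Plek2-/- progenitor replicate 2 (0.94).

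**Figure D5:**
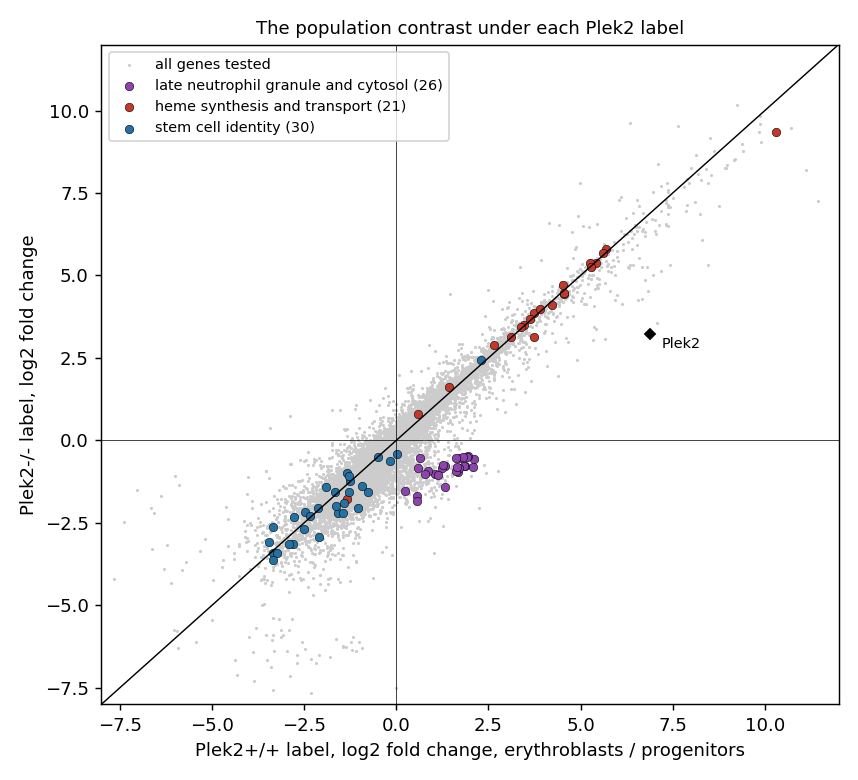
Log2 fold change of erythroblasts over progenitors under the Plek2-/- label (vertical axis) against that under the Plek2+/+ label (horizontal axis) for each tested gene, with the diagonal at equality. Heme and stem cell genes lie near the diagonal, while late neutrophil genes lie above 0 on the horizontal axis and below 0 on the vertical axis.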

How the data were processed

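RNA sequencing counts of 8 libraries were used, 4 of them labelled Plek2-/-. Per the submitters' processing notes, the authors used cutadapt 1.13, STAR 2.5.2a, HTSeq 0.6.1pl and DESeq2 1.14.1 with the mouse build mm10. How strand was handled, which annotation served and what each tool did were not given in the sources used here. Analysis started from the deposited raw counts, whole reads per gene; a deposited normalized table was not used. Genes were placed on GRCm38 with GENCODE vM21 (22869 of 23337, or 98%).

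All 8 libraries were fitted with edgeR 4.0.16 in R 4.3.3 as 4 groups: filterByExpr, TMM scaling, quasi-likelihood tests and Benjamini-Hochberg adjustment over 13365 genes, called at 0.05. The biological coefficient of variation was 7.62%. The 2-fold test is glmTreat. CPM are on TMM-scaled totals, and folds are back-transformed from fitted log2 values. The difference between labels is an interaction of the same fit. On simulated data the test recovered 94% of genes changed by 2-fold in the population contrast and 80% in the difference between labels. Unchanged genes made up 6.47% and 4.19% of those calls. Only 200 genes were changed in the simulation, while 76.7% were called in the data, so recovery in the data may differ. Replicates differed beyond counting error (5.84 to 16.4 for the chi-square divided by its degrees of freedom), and no library was counted as a repeat of another.

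The comparison, the 38 lists (923 of 930 entries matched), the 35 pairs and the tests were chosen with earlier results of these data known. Named genes were Plek2, Jak2 and Kit, the 10 genes with the most reads in each population, the 12 largest rises and falls past 2-fold at 50 CPM or more, the extremes and most abundant members of each list, the pairs, and the 8 highest and lowest differences between labels at 10 CPM or more. The text gives some of these only as counts, and some items are not reported here. List exceptions and heme enzymes outside this rule were named after their values were seen. Alternatives were other scalings, filters, tools (DESeq2 1.42.0, limma-voom with limma 3.58.1), a replicate block and leaving out each library.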

Additional observations from a re-analysis of the deposited data

Results flagged for a closer look

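The population contrast of 742 genes differed between the Plek2 labels by the edgeR test of the difference itself, the contrast under Plek2-/- minus that under Plek2+/+ on the log2 scale. The label and the sex of the mice cannot be told apart here. Among the genes named in the report, late neutrophil genes had the lowest values apart from Plek2 (-3.66): Camp -2.68, Ltf -2.65, Lcn2 -2.63, Ngp -2.61, S100a8 -2.45 and S100a9 -2.41. By edgeR, each of these 6 was called higher in erythroblasts under the Plek2+/+ label and lower under the Plek2-/- label, but the lower calls of Camp, Ltf, Ngp, S100a8 and S100a9 were lost without Plek2-/- progenitor replicate 2 (edgeR adjusted p = 0.0952 to 0.345) and with DESeq2.

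Other genes named in the report whose contrast differed were spread over its groups. Among regulators and stress genes, Klf2 differed by -1.11, Junb by -0.80, Rsad2 by -0.86, Ifitm1 by -0.96 and the receptor gene Il1rl1 by 0.47. Among red cell and metabolic genes, Slc2a1 differed by -0.90, Cd36 by -0.81, Hk2 by -0.77, Pkm2 by -0.76, Gsr by -0.72, Atg7 by -0.58 and Alas1 by -0.45. Among actin and platelet genes, Flna differed by -0.76, Rac2 by -0.77, Plek by -0.72 and Nbeal2 by -0.82. Further positive differences were Cdkn1a at 1.09, Xist at 0.89, Lgmn at 0.88 and Atp2b4 at 0.69. Without 1 library the calls of Klf2, Junb, Il1rl1, Slc2a1, Cd36, Hk2, Atg7, Alas1, Flna, Cdkn1a, Xist and Atp2b4 were lost in at least 1 case.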

How the results depend on the processing

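With library totals in place of TMM, 2307 genes were higher and 8957 lower, and 1030 and 4892 passed the 2-fold test, as all changes moved down by about the same amount. In that setting the medians of antioxidant (-0.22), D cyclin (-0.04), ribosomal protein (-0.30), respiratory chain (-0.03), chromatin (-0.35), PI3K-Akt (-0.54), megakaryocyte (-0.66), interferon (-0.24) and cholesterol lists (-0.55) turned negative, as did the changes of Cdkn1a (-0.15), Rmrp (-0.03) and Xist (-0.10). Rn45s, Rpph1, Cd4 and Hist2h2ab were not called there. The megakaryocyte median also turned without erythroblast (-0.06) or progenitor replicate 1 (-0.03), and ranged up to 0.27 without any other library. A 4-fold minimum left 801 higher and 252 lower. Without a filter on low counts the difference between labels gave 86 positive and 1129 negative calls.

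Leaving out each library gave 4717 to 5061 genes higher and 4619 to 5198 lower, 1809 to 2028 and 1582 to 2144 past 2-fold, and for the difference 2 to 50 positive and 399 to 1140 negative calls. Of 181 named genes called in the population contrast, 172 kept their call without any 1 library. DESeq2 called 4860 higher and 4629 lower, without Camp, Ltf, Ngp, S100a8 and S100a9, and limma-voom 5019 and 5217.

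Same-numbered libraries correlated in their deviations at 0.143 under the Plek2-/- label and 0.0465 under Plek2+/+, which does not settle whether they share a mouse or batch. With the number as a replicate block, 5033 genes were higher and 5241 lower, and the difference had 51 positive and 802 negative calls.

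In simulated data, genes changed by 1.5-fold were recovered at 71% in the population contrast and at 35.5% in the difference between labels. Smaller changes can therefore be missed at this depth and with 2 libraries a group, above all in the difference between labels.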

Other observations

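Clustered histone genes, chosen as a family after their values were seen, were higher in the erythroblast libraries without exception. All 59 tested were called higher by edgeR and 58 passed the 2-fold test, with Hist2h2ab, at 26.6 and 23.4 against 13.9 and 9.89 CPM, the exception. Their median log2 fold change was 2.67, with a range of 1.08 to 5.38. Together they took 4.56% and 4.40% of the erythroblast counts and 1.29% and 1.12% of the progenitor counts. Most messages of this family lack a poly(A) tail, and the labels give the molecule as total RNA.

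Some other families, also chosen after their values were seen, leaned the opposite way. Over all genes tested 39.2% were lower and 37.5% higher, with 16.1% and 15.0% past 2-fold. Of 10 Hox genes tested, 8 were lower and 0 higher, 5 past 2-fold, with a median log2 fold change of -2.15. Of 16 chemokine receptor genes 12 were lower and 1 higher, 5 and 0 past 2-fold. Of 52 G protein-coupled receptor genes (Gpr) 29 were lower and 11 higher, 14 and 5 past 2-fold. Zinc finger genes (Zfp) were lower in 165 and higher in 66 of 321, with a median of -0.38, and the 47 lower past 2-fold are close to the share over all genes. Ubiquitin-conjugating enzyme genes (Ube2) had 21 of 32 higher and 5 lower, 11 and 1 past 2-fold, with a median of 0.52 that lies within the shift between scalings.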
